A study of Mus musculus with 9 samples.

Results

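The cholesterol and lipid synthesis genes are 36 listed mouse genes that make sterols and fatty acids, sense sterol levels or move sterols out of cells. Each was read from the probe sets of the array annotation that name that gene alone, and where a gene had several, from the probe set with the highest mean over the 9 arrays. By this rule 32 of the 36 genes were measured, of 22180 genes on the array in all. They are 5 of 7 genes of the mevalonate steps, 11 of 11 genes from squalene to cholesterol, 5 of 5 genes of SREBP control, 5 of 6 fatty acid genes and 6 of 7 genes of sterol transport and LXR. Idi1 and Scd2 have only a probe set that also names a second gene, and Acat2 and Nr1h2 were not analysed here.

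The arrays, of the Affymetrix MoGene-2_0-st type, were made from total RNA of flash-frozen brain tumors and lesions of mice, 3 arrays in each of 3 groups. P3 high-DOX tumors are GBM (glioblastoma) of the genotype hPDGF-A;hPDGFRα;p53lox from mice fed doxycycline (DOX) at 600 mg/kg. P3 low-DOX tumors have the same genotype and were fed DOX at 25 mg/kg. Both doses are those of the labels, and the paper states a somewhat higher dose for the high diet. OPC lesions are growths of oligodendrocyte precursor cells (OPC), labelled hPDGFRα;p53, also at 600 mg/kg DOX. The paper describes the OPC lesions otherwise, as p53 floxed mice that received the hPDGF-A and Cre lentivirus, and names no receptor transgene. It reports wild-type p53 expression in the OPC lesion cells and holds them to be proliferating host cells, not tumors. Cultures of P3 tumors were p53 null. The receptor, the p53 status, the tumor and the genotype thus differ together between P3 tumors and OPC lesions and cannot be told apart. In P3 mice a Cre-dependent human PDGFRα transgene under the CAG promoter sits in the Col1a1 locus, and a lentivirus placed in the adult striatum carries Cre and a DOX-inducible human PDGF-A, so the diet sets the dose of ligand. All 3 groups received the virus and DOX, but the DOX dose is shared only by P3 high-DOX tumors and OPC lesions. P3 low-DOX tumors differ from OPC lesions in DOX dose as well (25 against 600 mg/kg). The age of the animals at sampling was not given in the sources used here.

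Cholesterol is built from acetyl-CoA by way of mevalonate to squalene, and squalene is then closed to lanosterol and trimmed to cholesterol. When sterol in the endoplasmic reticulum is low, SCAP escorts SREBP2 to the Golgi, where it is cleaved, and the freed part enters the nucleus and turns on nearly every enzyme of the pathway. INSIG proteins hold the complex back when sterol is plentiful. When sterol is in excess, oxysterols activate LXR receptors, which turn on the exporters ABCA1 and ABCG1, the carrier APOE and the SREBP1c form of Srebf1. Brain makes its own cholesterol, and oligodendrocytes use much of it for myelin.

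Values are log2 signals deposited by the authors (robust multichip average, RMA), and a difference of 1 is a doubling. Differences are given as the first group minus the second, with the standard error (SE) or 95% interval of a limma fit over all 9 arrays and p-values adjusted by Benjamini-Hochberg over 22180 genes. No gene of the array passed an adjusted p of 0.05 in any comparison (0% of all genes each time), and so no lipid gene did. The counts below at an unadjusted p under 0.05 are descriptions. Array medians lay between 4.55 and 4.83. The mean of 9 measured OPC markers lay between 9.41 and 10.9 on every array, and Pdgfra, the receptor gene that marks these cells, lay between 9.90 and 12.96. Mean levels of other cell type lists differed among arrays. Neuron genes were highest in P3 high-DOX replicate 2 (mean 10.4 over 11 genes) and OPC lesion replicate 1 (10.3), and the other arrays lay between 5.20 and 8.89. P3 high-DOX replicate 2 also held choroid plexus genes (mean 7.45, against 4.46 to 4.78 elsewhere). Fibroblast genes were highest in P3 low-DOX replicate 3 (10.9, against 6.12 to 7.75 elsewhere), and myelinating oligodendrocyte genes in P3 low-DOX replicate 1 (10.8, against 6.33 to 8.43 elsewhere). In bulk tissue, fewer cells of a type and less RNA per cell cannot be told apart. The arrays of a group are called biological replicates, and whether each is from its own mouse was not stated. The p-values thus reflect the spread among these arrays alone.

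Most genes of sterol synthesis had their highest mean in OPC lesions, an intermediate one in P3 high-DOX tumors and their lowest in P3 low-DOX tumors, though no single gene passed the test. Of the 16 measured enzymes from mevalonate to cholesterol, 16 had a lower mean in P3 high-DOX tumors than in OPC lesions, and 14 had a lower mean in P3 low-DOX tumors than in OPC lesions. Their median difference was -0.34 for P3 high-DOX minus OPC lesion and -0.77 for P3 low-DOX minus OPC lesion, while the median of all genes was -0.0073 and -0.0034. Between the doses, 14 of the 16 had the higher mean in P3 high-DOX tumors, with a median of 0.45. The highest of the 9 arrays was an OPC lesion for 13 of these 16 enzymes (81.2%), compared with 29.3% of all genes.

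**Figure D1:**
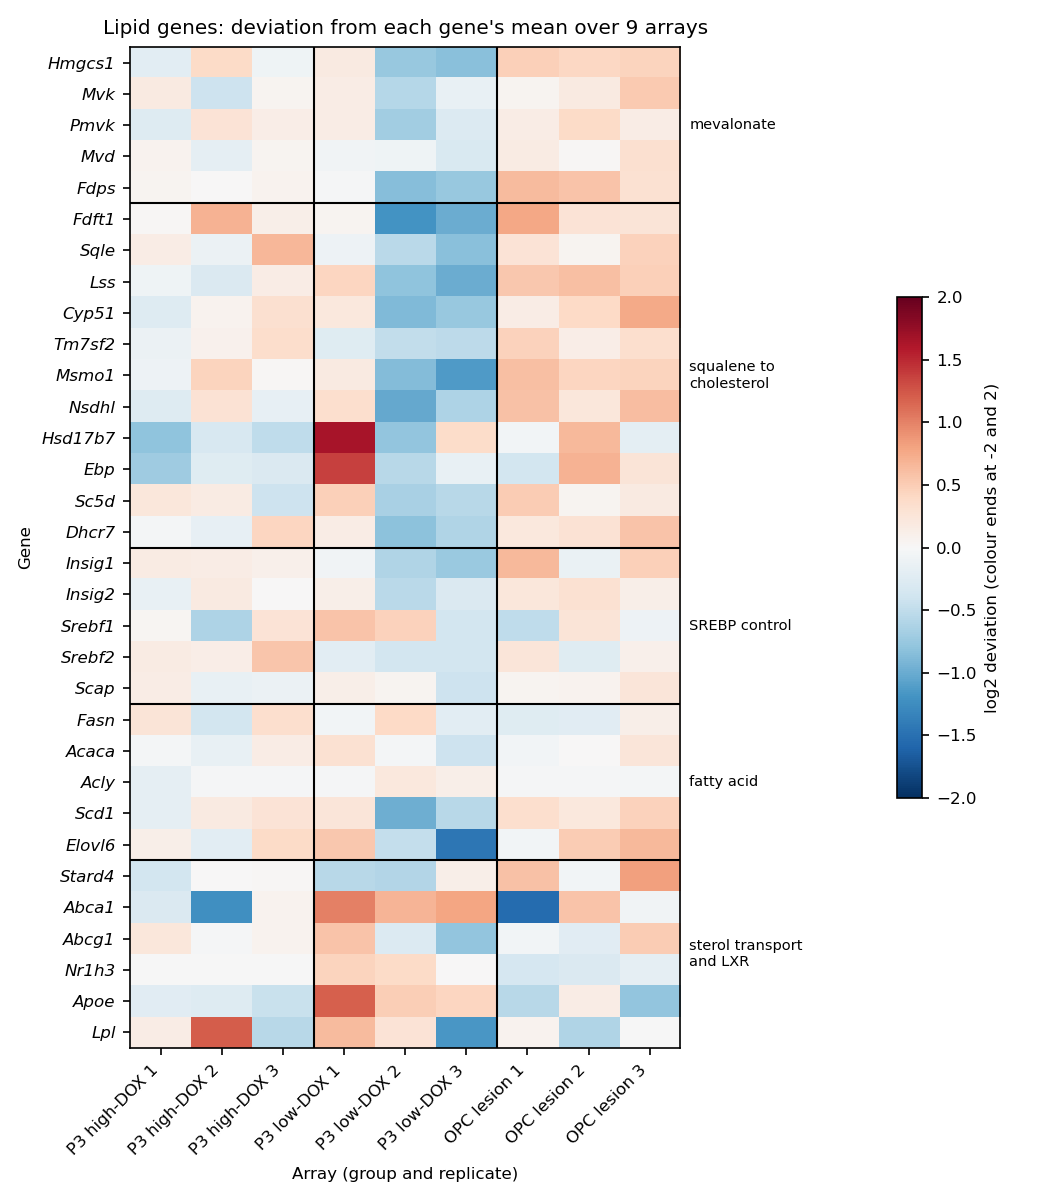
Heat map of the 32 measured lipid genes (rows, grouped by role) on the 9 arrays (columns, 3 per group). Colour gives the log2 deviation of each array from that gene's mean over 9 arrays, red above and blue below. The block of blue lies in P3 low-DOX replicates 2 and 3, where 18 of the 32 genes had their 2 lowest values.

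The low levels in P3 low-DOX tumors lay in 2 of the 3 arrays. For 12 of the 16 sterol synthesis enzymes, and for 18 of all 32 lipid genes, P3 low-DOX replicates 2 and 3 held the 2 lowest of the 9 values, as 5.81% of all genes did. This pattern was noticed after the values were seen. The mean deviation of the 16 enzymes from their OPC lesion mean was -1.07 and -0.91 in these replicates, but -0.03 in P3 low-DOX replicate 1, the array with the highest myelin genes. High values of Hsd17b7 and Ebp raised the mean of that array, where the 5 mevalonate enzymes deviated by -0.24. In the 3 P3 high-DOX arrays the mean deviation of the 16 enzymes was -0.47, -0.30 and -0.29, and the 3 OPC lesion arrays lay within 0.03 of their mean.

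Among the mevalonate genes, Fdps differed most. FDPS makes farnesyl diphosphate, the last shared intermediate of sterols and prenylated proteins. Fdps was 8.23, 8.17 and 8.24 in P3 high-DOX tumors, 8.14, 7.32 and 7.41 in P3 low-DOX tumors, and 8.79, 8.73 and 8.48 in OPC lesions. Every P3 array of both doses lay below every OPC lesion array, and every high-DOX array lay above every low-DOX array. The difference was -1.04 (SE 0.22) for P3 low-DOX minus OPC lesion, 2.06-fold lower in the tumors, with an adjusted p of 0.42. It was -0.45 (SE 0.22, adjusted p = 1.0) for P3 high-DOX minus OPC lesion and 0.59 (SE 0.22, adjusted p = 0.44) between the doses.

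Hmgcs1 encodes the synthase that condenses acetyl units into HMG-CoA at the start of the pathway. It was 10.09, 10.69 and 10.22 in P3 high-DOX tumors, 10.49, 9.54 and 9.47 in P3 low-DOX tumors, and 10.78, 10.72 and 10.75 in OPC lesions. All 6 P3 arrays were below all 3 OPC lesion arrays, whose SD was 0.03. P3 low-DOX minus OPC lesion was -0.92 (95% interval -1.57 to -0.27, adjusted p = 0.44). Mvk and Pmvk, the kinases that phosphorylate mevalonate, and Mvd, which decarboxylates the product, had smaller differences. For P3 low-DOX minus OPC lesion these were -0.44 (Mvk), -0.50 (Pmvk) and -0.32 (Mvd).

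Between squalene and cholesterol, 8 of 11 genes were lower in P3 low-DOX tumors than in OPC lesions at an unadjusted p under 0.05 (5.41% of all genes), and 0 were higher (4.4%). Tm7sf2, a sterol C14 reductase, was 6.26, 6.46 and 6.73 in P3 high-DOX tumors, 6.13, 5.88 and 5.85 in P3 low-DOX tumors, and 6.83, 6.50 and 6.70 in OPC lesions. The 3 low-DOX arrays were the 3 lowest, and high-DOX tumors and OPC lesions overlapped. P3 low-DOX minus OPC lesion was -0.72 (SE 0.16, adjusted p = 0.44), and high minus low DOX was 0.53 (SE 0.16, adjusted p = 0.41).

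Msmo1, the C4-methylsterol oxidase, was 7.12, 7.67 and 7.24 in P3 high-DOX tumors, 7.40, 6.35 and 6.09 in P3 low-DOX tumors, and 7.83, 7.65 and 7.67 in OPC lesions. Low-DOX replicate 1 lay with the high-DOX tumors and the other low-DOX replicates lay below every other array. P3 low-DOX minus OPC lesion was -1.10 (SE 0.32, adjusted p = 0.44), 2.15-fold lower in the tumors. Lss, which closes squalene epoxide to lanosterol, was 7.72, 7.51 and 7.95 in P3 high-DOX tumors, 8.23, 7.0 and 6.82 in P3 low-DOX tumors, and 8.34, 8.41 and 8.28 in OPC lesions. For Lss both doses lay below the OPC lesions on every array, with differences of -0.62 (SE 0.34) at high DOX and -0.99 (SE 0.34) at low DOX.

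Nsdhl, the dehydrogenase that acts after Msmo1, was 8.34, 8.89 and 8.44 in P3 high-DOX tumors, 8.94, 7.58 and 7.98 in P3 low-DOX tumors, and 9.18, 8.82 and 9.21 in OPC lesions. The P3 groups overlapped with the OPC lesions here. Fdft1, the squalene synthase, was 9.30, 9.98 and 9.40 in P3 high-DOX tumors, 9.34, 8.08 and 8.29 in P3 low-DOX tumors, and 10.06, 9.55 and 9.55 in OPC lesions. Its difference of -1.15 (SE 0.35, adjusted p = 0.44) for P3 low-DOX minus OPC lesion was the most negative of the 32 genes. Sqle, the squalene epoxidase, was 8.75, 8.49 and 9.27 in P3 high-DOX tumors, 8.51, 8.06 and 7.76 in P3 low-DOX tumors, and 8.87, 8.66 and 9.06 in OPC lesions. For Sqle the high-DOX tumors and OPC lesions were close, with a difference of -0.03 (95% interval -0.61 to 0.56).

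The other genes of these steps were Cyp51 (lanosterol demethylase), Sc5d (lathosterol oxidase), Dhcr7 (the last reductase to cholesterol), Hsd17b7 and Ebp (a sterol isomerase). Cyp51 and Dhcr7 had differences of -0.91 and -0.78 for P3 low-DOX minus OPC lesion, and Sc5d of -0.49. Hsd17b7, a sterol ketone reductase, and Ebp had the opposite sign between the doses (-0.96 and -0.64, high minus low), and both were chosen for mention after their values were seen. Hsd17b7 was 6.86, 7.33 and 7.14 in P3 high-DOX tumors, 9.31, 6.87 and 8.03 in P3 low-DOX tumors, and 7.61, 8.30 and 7.46 in OPC lesions. Ebp was 7.48, 7.94 and 7.89 in P3 high-DOX tumors, 9.56, 7.63 and 8.04 in P3 low-DOX tumors, and 7.81, 8.87 and 8.44 in OPC lesions. Both peaked in P3 low-DOX replicate 1, whose myelin genes were the highest of the 9 arrays, and the part of myelinating cells in these levels was not tested. In this array Mog was 11.4 and Klk6 10.7, against 5.85 to 8.72 and 4.82 to 7.27 on the other 8. These 2 markers were chosen after their values were seen, and others stood out less. Mbp was 10.12, against at most 9.57 elsewhere, and Cldn11 was 12.74, against at most 12.32.

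**Figure D2:**
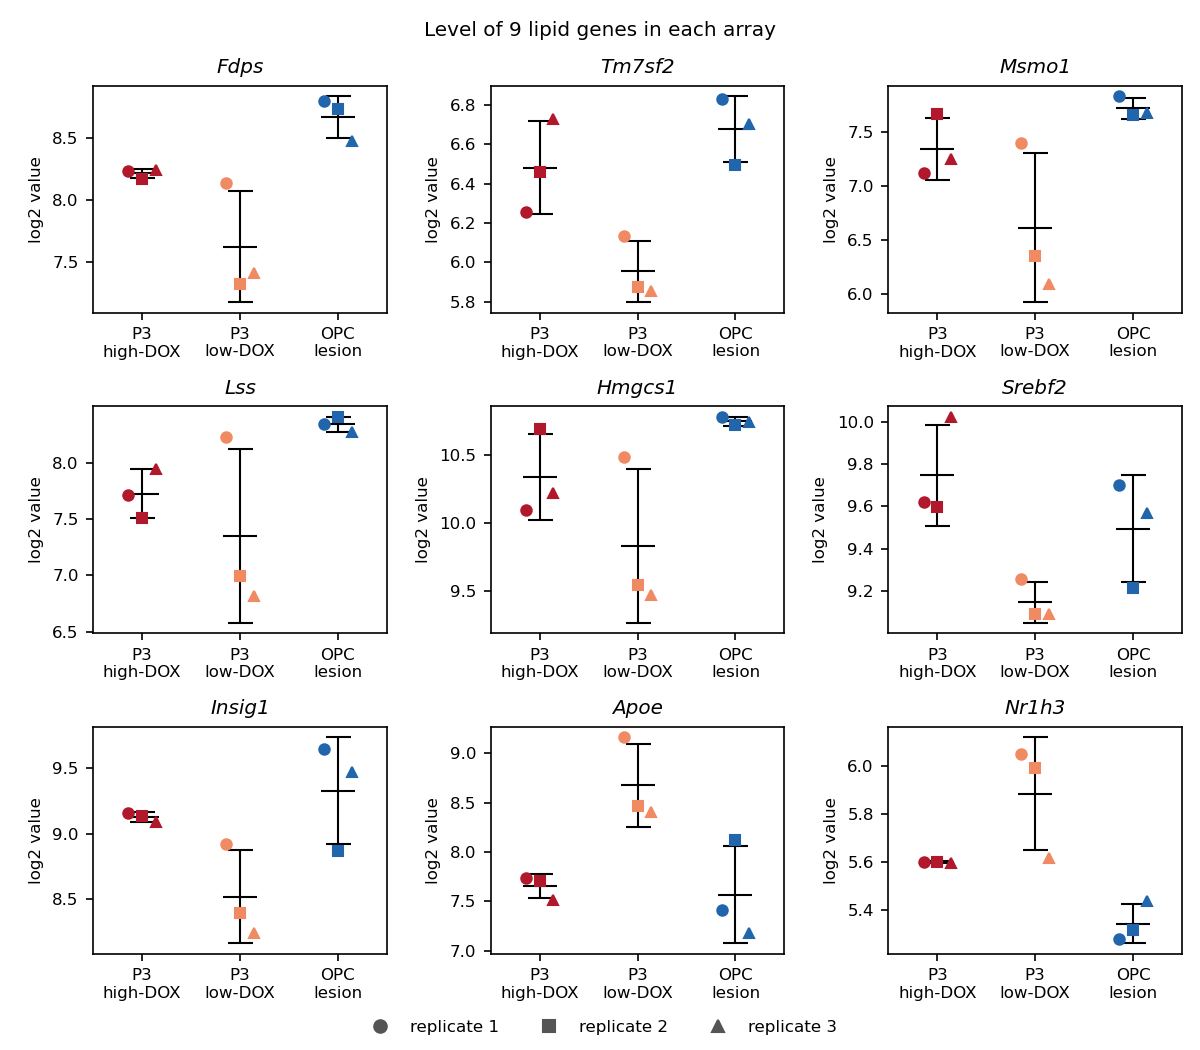
Level of 9 lipid genes in each array, as log2 value (vertical axes differ), in P3 high-DOX tumors, P3 low-DOX tumors and OPC lesions. Marker shape gives the replicate, and black bars give the mean and SD of 3 arrays. Fdps, Tm7sf2, Msmo1, Lss and Hmgcs1 had their lowest values in P3 low-DOX replicates 2 and 3, Srebf2 and Insig1 were higher in each high-DOX than in each low-DOX array, and Apoe and Nr1h3 were highest in low-DOX tumors.

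The start regions of these genes are shown because these genes had their lowest levels on the same arrays. SREBP acts at promoters along with NF-Y, which binds the CCAAT box, and Sp1, which binds GGGCGG. Of the 32 measured genes, 25 had a window of 250 bases before to 50 bases after a start in RefSeq (GRCm38.p6), and Fdps, Fdft1, Sqle, Scd1, Stard4, Abcg1 and Lpl had none. On either strand CCAAT was found in 13 of the 16 windows of sterol synthesis genes, compared with 37.4% of 32851 windows of all genes and 38.2% of 21262 windows of protein-coding genes. Counted by gene, 13 of 13 sterol synthesis genes held it in at least 1 window, compared with 41.1% of 27025 genes with a window and 42.3% of 17491 protein-coding ones. GGGCGG was found in 13 of the 16 windows (35.7% of all windows, 46.2% of coding ones). The sterol regulatory element TCACNCCAC was found in 1 of the 16, that of Hmgcs1 (1.24% of all windows), and the E-box CACGTG in 3 of the 16 (7.15% of all windows). Of the 3 sterol transport and LXR genes with a window (Abca1, Apoe, Nr1h3), 0 held CCAAT. Matches of different motifs overlapped 0 times in the windows of the lipid genes, and a match describes letters only. Only exact matches were counted, with N as any base, so a variant of an element would be missed.

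The stretches below run from 230 to 31 bases before the start, 5′ to 3′ on the strand of the gene, with each CCAAT box, or ATTGG where it lies on the other strand, in capitals. In Hmgcs1 the capitals also mark the sterol regulatory element TCACCCCAC, 137 bases before the start, between 2 CCAAT boxes on the other strand. Msmo1 holds 3 CCAAT boxes in the forward direction, and Apoe, set beside them as a gene with the opposite order of levels, holds none. Other genes outside the common order do hold the box. The windows of Hsd17b7 and Ebp, which had the opposite sign between the doses, held 3 and 2. That of Fasn, which differed little, held 3. The positions are chr13:119690121-119690320 (+ strand) for Hmgcs1, chr10:76531375-76531574 (+ strand) for Lss, chr19:6067881-6068080 (- strand) for Tm7sf2, chr8:64733609-64733808 (- strand) for Msmo1, chrX:72918291-72918490 (+ strand) for Nsdhl, chr5:28071182-28071381 (+ strand) for Insig1, chr15:82147039-82147238 (+ strand) for Srebf2 and chr7:19699219-19699418 (- strand) for Apoe (GRCm38.p6).
Hmgcs1: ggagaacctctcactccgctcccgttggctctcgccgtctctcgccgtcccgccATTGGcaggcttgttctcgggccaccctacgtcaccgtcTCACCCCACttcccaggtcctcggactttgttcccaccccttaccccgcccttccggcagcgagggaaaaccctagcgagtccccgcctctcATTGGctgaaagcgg
Lss: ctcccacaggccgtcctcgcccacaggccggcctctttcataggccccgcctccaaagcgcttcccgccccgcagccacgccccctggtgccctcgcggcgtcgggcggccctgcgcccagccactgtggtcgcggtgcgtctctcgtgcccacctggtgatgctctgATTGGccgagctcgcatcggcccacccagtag
Tm7sf2: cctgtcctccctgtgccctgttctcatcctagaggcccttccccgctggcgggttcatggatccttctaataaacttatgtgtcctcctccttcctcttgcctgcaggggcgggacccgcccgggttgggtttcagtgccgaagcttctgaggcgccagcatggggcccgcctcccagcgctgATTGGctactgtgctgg
Msmo1: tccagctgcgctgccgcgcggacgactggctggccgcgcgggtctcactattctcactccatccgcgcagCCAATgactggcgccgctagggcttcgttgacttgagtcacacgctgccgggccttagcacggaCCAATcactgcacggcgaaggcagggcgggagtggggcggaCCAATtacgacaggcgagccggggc
Nsdhl: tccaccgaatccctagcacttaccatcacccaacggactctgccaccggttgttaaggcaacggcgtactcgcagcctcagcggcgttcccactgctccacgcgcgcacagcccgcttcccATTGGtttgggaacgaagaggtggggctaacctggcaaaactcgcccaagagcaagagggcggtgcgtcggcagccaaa
Insig1: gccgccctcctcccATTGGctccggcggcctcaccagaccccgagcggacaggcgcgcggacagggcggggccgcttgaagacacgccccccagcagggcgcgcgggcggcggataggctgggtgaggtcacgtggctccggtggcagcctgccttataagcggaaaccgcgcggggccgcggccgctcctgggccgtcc
Srebf2: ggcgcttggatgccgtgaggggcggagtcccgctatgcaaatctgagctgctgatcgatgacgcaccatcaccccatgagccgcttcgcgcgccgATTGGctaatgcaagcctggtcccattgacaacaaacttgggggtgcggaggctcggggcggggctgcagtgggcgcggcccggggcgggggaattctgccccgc
Apoe: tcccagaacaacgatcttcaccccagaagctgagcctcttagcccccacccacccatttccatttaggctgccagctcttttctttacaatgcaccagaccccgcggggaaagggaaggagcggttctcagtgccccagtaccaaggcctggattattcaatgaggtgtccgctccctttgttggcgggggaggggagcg

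Among the SREBP control genes, Srebf2 and Insig1 had higher means in P3 high-DOX than in P3 low-DOX tumors, and Srebf1 had a lower one. Srebf2, the gene of SREBP2, was 9.62, 9.60 and 10.02 in P3 high-DOX tumors, 9.26, 9.09 and 9.09 in P3 low-DOX tumors, and 9.70, 9.21 and 9.57 in OPC lesions. All high-DOX arrays lay above all low-DOX arrays, and the OPC lesions spread across the gap. High minus low DOX was 0.60 (SE 0.17, 95% interval 0.20 to 0.99, 1.52-fold), with an adjusted p of 0.39. Insig1, which retains the SCAP complex and is itself an SREBP target, was 9.16, 9.13 and 9.09 in P3 high-DOX tumors, 8.92, 8.39 and 8.24 in P3 low-DOX tumors, and 9.65, 8.87 and 9.47 in OPC lesions. The 3 high-DOX arrays had an SD of 0.04 and lay above all low-DOX arrays, with a high minus low difference of 0.61 (SE 0.24, adjusted p = 0.46). For P3 low-DOX minus OPC lesion Insig1 gave -0.81 (SE 0.24, adjusted p = 0.44).

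Srebf1, the gene of SREBP1, was 7.77, 7.11 and 8.01 in P3 high-DOX tumors, 8.30, 8.20 and 7.37 in P3 low-DOX tumors, and 7.22, 7.99 and 7.63 in OPC lesions. The groups overlapped, and the high minus low difference was -0.33 (95% interval -1.10 to 0.45), opposite in sign to Srebf2. Insig2 had a difference of -0.45 for P3 low-DOX minus OPC lesion. Scap lay between 8.44 and 9.11 on all arrays, with a high minus low difference of 0.05 (95% interval -0.34 to 0.43).

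Fatty acid genes differed little in their first steps. Acly, which makes cytosolic acetyl-CoA from citrate, lay between 9.51 and 9.91 on the 9 arrays, and its high minus low difference was -0.18 (95% interval -0.42 to 0.06). Acaca, the carboxylase that makes malonyl-CoA, had a high minus low difference of 0.04, and Fasn, the fatty acid synthase, of 0.03 (95% interval -0.51 to 0.58). Fasn averaged 10.52 ± 0.38 in P3 high-DOX tumors, 10.49 ± 0.32 in P3 low-DOX tumors and 10.33 ± 0.20 in OPC lesions (SD, n = 3 each). The desaturase Scd1 and the elongase Elovl6 followed the sterol genes more closely. Scd1 had a difference of -0.77 (SE 0.29) for P3 low-DOX minus OPC lesion, and Elovl6 of -0.83 (SE 0.46), with its lowest value of 8.66 in P3 low-DOX replicate 3. Of the 5 fatty acid genes measured, 1 was lower at an unadjusted p under 0.05 in that comparison (5.41% of all genes) and 0 were higher (4.4%), a count too small to set apart from the background.

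Of the genes of sterol transport and LXR, Apoe, Abca1 and Nr1h3 had their highest means in P3 low-DOX tumors, where most sterol enzymes had their lowest. The 2 orders did not match array by array, as Apoe, Abca1 and Nr1h3 all peaked in P3 low-DOX replicate 1. There the 16 sterol synthesis enzymes had a mean deviation of -0.03 from their OPC lesion mean. That mean was raised by Hsd17b7 (9.31, against an OPC lesion mean of 7.79) and Ebp (9.56 against 8.37). The 5 mevalonate enzymes deviated by -0.24 on this array. Apoe, the main lipid carrier protein of brain, was 7.74, 7.71 and 7.52 in P3 high-DOX tumors, 9.16, 8.46 and 8.40 in P3 low-DOX tumors, and 7.41, 8.12 and 7.18 in OPC lesions. Every low-DOX array lay above every other array. High minus low DOX was -1.02 (SE 0.28, adjusted p = 0.39), 2.03-fold lower in high-DOX tumors, and P3 low-DOX minus OPC lesion was 1.11 (SE 0.28, adjusted p = 0.44). Nr1h3, the gene of LXRα, was 5.60, 5.60 and 5.59 in P3 high-DOX tumors, 6.05, 5.99 and 5.62 in P3 low-DOX tumors, and 5.28, 5.32 and 5.44 in OPC lesions. All 6 P3 arrays were above all 3 OPC lesion arrays, with a difference of 0.40 (SE 0.11, adjusted p = 0.97) for both doses together. Nr1h3 was dimmer than Apoe. Of all genes, 46.8% lay below Nr1h3 in OPC lesions, 49.9% in P3 high-DOX tumors and 53.5% in P3 low-DOX tumors.

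Abca1, the exporter that loads lipid onto apolipoproteins, was named after its values were seen. It was 9.02, 8.08 and 9.38 in P3 high-DOX tumors, 10.32, 9.98 and 10.08 in P3 low-DOX tumors, and 7.76, 9.87 and 9.24 in OPC lesions. All 3 low-DOX arrays were above all other arrays, with a high minus low difference of -1.30 (SE 0.54, adjusted p = 0.47). The related exporter Abcg1 did not share this order, with a high minus low difference of 0.25 (95% interval -0.53 to 1.03). Stard4, which carries cholesterol between membranes, was 5.96, 6.33 and 6.35 in P3 high-DOX tumors, 5.77, 5.74 and 6.45 in P3 low-DOX tumors, and 6.90, 6.27 and 7.15 in OPC lesions. Its difference for both doses minus OPC lesion was -0.68 (SE 0.24, adjusted p = 0.97). Lpl, the lipoprotein lipase, varied widely within groups, between 5.48 and 7.86.

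The 2 lists of macrophage and microglia markers, like Apoe, Abca1 and Nr1h3, had their highest means in P3 low-DOX tumors. Within that group the highest array differed between the lists. The monocyte-derived macrophage mean was highest in replicate 3. The microglia mean was highest in replicate 1, as Apoe, Abca1 and Nr1h3 were. The 9 measured genes of the monocyte-derived macrophage list averaged 5.11, 5.16 and 5.51 in P3 high-DOX tumors, 7.45, 6.73 and 7.98 in P3 low-DOX tumors, and 4.91, 6.27 and 5.35 in OPC lesions. For the microglia list of 9 genes the averages were 7.89, 7.81 and 6.78 in P3 high-DOX tumors, 9.49, 8.23 and 8.54 in P3 low-DOX tumors, and 7.37, 8.61 and 7.22 in OPC lesions. Lyz2 was 8.03 to 9.28 in high-DOX tumors, 11.3 to 12.2 in low-DOX tumors and 7.29 to 10.2 in OPC lesions, and Cd163 was between 4.65 and 5.09 everywhere. At an unadjusted p under 0.05, 0 of the 9 macrophage genes were higher (5.25% of all genes) and 6 lower (4.89%) at the high dose than at the low dose. The part of macrophages in the levels of Apoe, Abca1 and Nr1h3, and the part of fibroblasts, myelinating cells and neurons in those of the sterol enzymes, was not tested. Low-DOX replicates 2 and 3, the arrays with low sterol enzymes, had fibroblast means of 7.43 and 10.9, myelinating oligodendrocyte means of 7.40 and 7.82 and neuron means of 5.20 and 6.50.

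**Figure D3:**
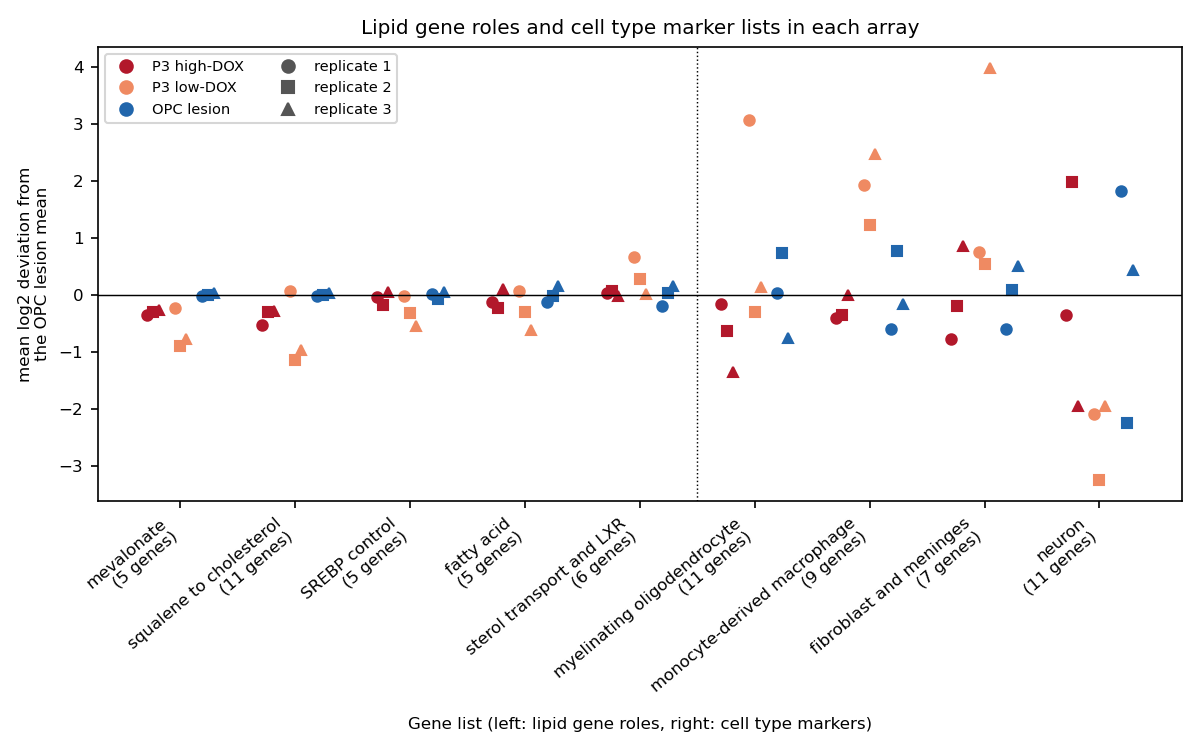
Mean log2 deviation from the OPC lesion mean, per array, for the 5 roles of lipid genes (left of the dotted line) and 4 cell type marker lists (right). Colour gives the group and shape the replicate. The 2 sterol synthesis roles were lowest in P3 low-DOX replicates 2 and 3, the macrophage list was high in all 3 low-DOX arrays, and the myelinating and fibroblast lists each stood out in 1 low-DOX array.

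For P3 high-DOX minus P3 low-DOX, the comparison of DOX diets within the tumor model, 0 of 32 lipid genes passed an adjusted p of 0.05. The paper reports shorter survival on the high diet, and fatal tumors in only part of the mice on the low diet. Ligand dose, DOX itself and time to tumor thus cannot be told apart here. At an unadjusted p under 0.05, 6 were higher in high-DOX tumors (background 5.25% of all genes) and 2 were lower (4.89%). The 6 were Srebf2, Tm7sf2, Sqle, Fdft1, Fdps and Insig1, and the 2 were Apoe and Abca1. The arrays did not overlap for 4 genes that were higher (8.23% of all genes) and 3 that were lower (7.76%). The median difference of the 32 genes was 0.29, beside -0.0002 over all genes. Leaving out P3 low-DOX replicate 1 gave 18 higher genes, leaving out P3 low-DOX replicate 2 or 3 gave 2, and leaving out P3 high-DOX replicate 3 gave 3. The count of lower genes was 1 without P3 high-DOX replicate 1 or 2, P3 low-DOX replicate 1 or OPC lesion replicate 3.

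For P3 high-DOX minus OPC lesion, 0 of 32 genes were higher and 0 lower at an unadjusted p under 0.05, where the background was 0.897% and 0.726%. The arrays did not overlap for 1 gene that was higher, Nr1h3 (3.34% of all genes), and 4 that were lower, Fdps, Lss, Hmgcs1 and Hsd17b7 (3.02%). The median difference was -0.20. Without P3 low-DOX replicate 1, which is in neither group but enters the estimate of the spread, 4 genes were lower. Without OPC lesion replicate 2 there was 1 lower gene, and without P3 low-DOX replicate 3 there was 1 higher gene.

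For P3 low-DOX minus OPC lesion, 15 of 32 genes were lower at an unadjusted p under 0.05 (background 5.41%) and 2 were higher (4.4%), Nr1h3 and Apoe. The arrays did not overlap for 9 lower genes (7.92% of all genes) and 3 higher ones (6.34%). Of the 15, 11 were sterol synthesis enzymes, and the others were Insig1, Insig2, Scd1 and Stard4. The median difference was -0.47. Leaving out single arrays moved the count of lower genes between 7 (P3 low-DOX replicate 2, P3 low-DOX replicate 3 or OPC lesion replicate 3 left out) and 18 (P3 low-DOX replicate 1 left out). These comparisons share their low-DOX or OPC lesion arrays, so the lists of genes are not separate results.

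For the mean of both P3 doses minus OPC lesion, 9 genes were lower at an unadjusted p under 0.05 (background 2.14%) and 2 were higher (1.71%), with a median of -0.35. The count of lower genes was 17 when P3 low-DOX replicate 1 was left out, 2 when OPC lesion replicate 3 was, and 3 when OPC lesion replicate 1 or P3 low-DOX replicate 2 was. It was 4 without P3 high-DOX replicate 1. Of the 2 higher genes, Nr1h3 and Apoe, 1 was left without any single P3 high-DOX array, P3 low-DOX replicate 1, or OPC lesion replicate 1 or 3.

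**Figure D4:**
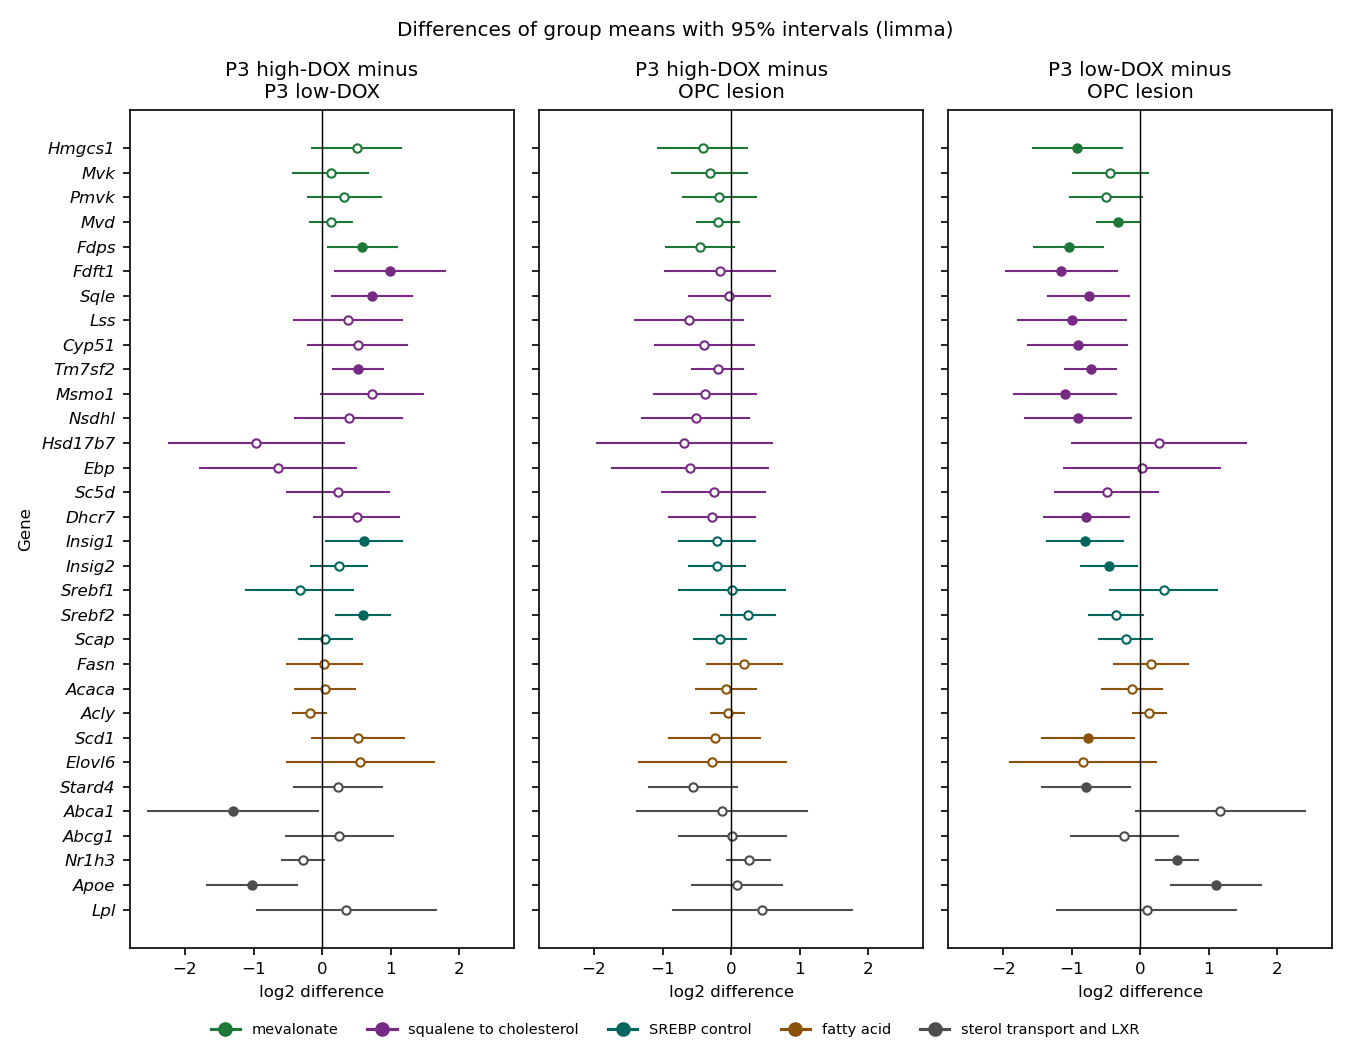
Difference of group means (log2) with its 95% interval for each of the 32 lipid genes, coloured by role, in 3 comparisons. Filled points have an unadjusted p under 0.05, which 8 genes had between the doses, 0 for P3 high-DOX minus OPC lesion and 17 for P3 low-DOX minus OPC lesion, and none of them passed the adjusted threshold.

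Among 13 other sterol genes measured, 0 were higher (5.25% of all genes) and 3 lower (4.89%) at an unadjusted p under 0.05 at the high dose relative to the low dose. These were Mylip, the LXR-induced ligase that degrades the LDL receptor, Cyp27a1, a sterol hydroxylase, and Ch25h, which makes the oxysterol 25-hydroxycholesterol. Mylip was 6.59, 7.69 and 6.50 in high-DOX tumors, 8.96, 7.89 and 8.47 in low-DOX tumors, and 7.10, 7.36 and 6.78 in OPC lesions. Its high minus low difference was -1.51 (SE 0.38, adjusted p = 0.38), and that of Cyp27a1 was -1.60 (SE 0.41, adjusted p = 0.38). Ch25h was 5.02, 5.24 and 5.13 in high-DOX tumors, 7.84, 6.06 and 6.92 in low-DOX tumors, and 5.10, 7.99 and 5.99 in OPC lesions, with a difference of -1.81 (SE 0.72). For both doses minus OPC lesion, Acat1, Ggps1, which makes geranylgeranyl diphosphate, and Mbtps2, the protease that makes the second cut of SREBP, had differences of -0.53, -0.43 and -0.50.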

How the data were processed

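Total RNA of 9 samples was hybridised to Affymetrix MoGene-2_0-st arrays, 3 per group. The authors normalized the arrays by the robust multichip average (RMA) method and deposited log2 values; their methods then name SVA without stating whether these values come from before or after it, and no version was given in the sources used here. The values were used without further scaling.

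Of 41345 probe sets, 23521 name 1 gene in the annotation, 1820 name several, which were left out, and 16004 have no name here; 23328 matched a RefSeq gene (GRCm38.p6) by identifier. For the 1082 genes with more than 1 probe set, the one with the highest mean was kept, giving 22180 genes. Each contrast was fitted over all 9 arrays with limma 3.58.1 (R 4.3.3), with 6 residual degrees of freedom and Benjamini-Hochberg adjustment over all genes at 0.05. Precision is limited by the number of arrays. The fit was tested on simulated data.

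The members and lists were chosen with earlier results of these data known. Values in every array were given for the 6 members with the smallest p in each of the 4 contrasts and for Srebf1, Srebf2 and Insig1. Of each other list, up to 3 genes, with the lowest p for high minus low dose or for P3 minus OPC lesion, were named. Replicate numbers did not pair the samples. Alternatives were array median centring, a filter on dim genes, averaging the probe sets of a gene, a mean-dependent variance prior, a fit of the compared groups alone, the replicate block, the methods' t-test, leaving out each array, and leaving out the 2 arrays richest in neuron genes. Promoter letters came from RefSeq. Figures were drawn with matplotlib 3.10.9.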

Additional observations from a re-analysis of the deposited data

Results flagged for a closer look

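Srebf2 differed in direction between the P3 doses when each was set against the OPC lesions. Its values were 9.62, 9.60 and 10.02 in P3 high-DOX tumors, 9.26, 9.09 and 9.09 in P3 low-DOX tumors, and 9.70, 9.21 and 9.57 in OPC lesions. Every high-DOX array lay above the OPC lesion mean of 9.49 and every low-DOX array below it. The difference between the doses was 0.60 on the log2 scale (SE 0.17, limma adjusted p = 0.39), which did not pass the threshold. It does not test whether the doses lie on opposite sides of the OPC lesions. P3 high-DOX minus OPC lesion was 0.25 (95% interval -0.14 to 0.65). P3 low-DOX minus OPC lesion was -0.35 (95% interval -0.74 to 0.05). Both intervals span no difference. The OPC lesion arrays lay between 9.21 and 9.70, across the gap between the doses.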

How the results depend on the processing

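No lipid gene passed an adjusted p of 0.05 under any alternative run, and 677 of 680 values of single genes kept their direction. For P3 both doses minus OPC lesion, Srebf1 was 0.18 with all arrays and ranged from -0.018 (without OPC lesion replicate 1) to 0.365 when single arrays were left out. Srebf2 was -0.05 with all arrays and ranged from -0.19 to 0.053 (without OPC lesion replicate 1), and it was 0.091 without the 2 neuron-rich arrays (P3 high-DOX replicate 2 and OPC lesion replicate 1). The cause was not tested.

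Counts of lipid genes at an unadjusted p under 0.05 moved more. For P3 high-DOX minus P3 low-DOX, the count of higher genes (6) was 3 by the methods' t-test and 3 without the neuron-rich arrays, and the count of lower genes (2) was 1 with array median centring and 1 with the replicate block. For P3 high-DOX minus OPC lesion (0 and 0), fitting only the groups compared gave 1 higher and 4 lower, the methods' t-test 1 and 2, and the replicate block 1 lower. For P3 low-DOX minus OPC lesion, the methods' t-test gave 5 lower genes and the omission of the neuron-rich arrays 8 (15 in the fit reported), and centring gave 1 higher gene instead of 2. For both doses minus OPC lesion, the higher genes (2) were 0 with centring and without the neuron-rich arrays, and 1 with the trend, with only the groups compared and by the methods' t-test, while the lower genes (9) were 4 by the methods' t-test and 2 without the neuron-rich arrays. With array median centring the median of all genes was 0.11 between the doses and -0.18 for P3 low-DOX minus OPC lesion, and the lipid gene medians became 0.40 and -0.65. The replicate block moved no other count by over 1.5 times.

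Leaving out single arrays gave, between the doses, 2 to 18 higher and 1 to 2 lower genes and medians of 0.13 to 0.61. It gave 0 to 1 higher and 0 to 4 lower genes for P3 high-DOX minus OPC lesion (medians -0.25 to -0.17). For P3 low-DOX minus OPC lesion it gave 2 to 3 higher and 7 to 18 lower genes (medians -0.66 to -0.31), and for both doses 1 to 2 higher and 2 to 17 lower (medians -0.50 to -0.27). Counts of lipid genes past the adjusted threshold were 0 in all of these fits. Same-numbered samples had correlations of deviations from -0.48 to 0.27, so the numbers did not pair the arrays. A signal near background on an array compresses differences, and 3 arrays per group limit every interval given.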

Other observations

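Of 23 other fatty acid genes, 2 were higher (5.25% of all genes) and 1 lower (4.89%) at the high dose than at the low dose at an unadjusted p under 0.05, shares near the background. Fads1, a desaturase of polyunsaturated fatty acids, was 10.32, 10.52 and 10.72 in high-DOX tumors, 10.12, 10.19 and 9.84 in low-DOX tumors, and 10.40, 10.49 and 10.54 in OPC lesions. Its high minus low difference was 0.48 (SE 0.14, adjusted p = 0.41), and every high-DOX array lay above every low-DOX array. Elovl4, an elongase of very long chains, had a difference of 0.94 (SE 0.37) between the doses and of -0.90 (SE 0.32) for both doses minus OPC lesion, and Elovl7 had -1.50 (SE 0.58) between the doses.

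Of 19 other lipoprotein and efflux genes, 2 were higher (5.25% of all genes) and 1 lower (4.89%) in high-DOX tumors at that level, again few against the background. Plin2, the coat protein of lipid droplets, was 6.98, 6.45 and 7.26 in high-DOX tumors, 8.75, 7.6 and 9.31 in low-DOX tumors, and 6.56, 8.59 and 7.5 in OPC lesions. Its high minus low difference was -1.66 (SE 0.58, adjusted p = 0.43). The exporter Abcg4 and the receptor Lrp8 had differences of 1.18 (SE 0.40) and 0.78 (SE 0.28). Plin2, like Apoe, had its highest mean in P3 low-DOX tumors, as the macrophage list did, and the part of these cells in its level was not tested.

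Of 7 measured enzymes of myelin lipids, Fa2h, which makes hydroxylated fatty acids of myelin, was 8.06, 7.42 and 8.30 in high-DOX tumors, 11.01, 9.78 and 8.87 in low-DOX tumors, and 7.89, 9.58 and 7.22 in OPC lesions. Its high minus low difference was -1.96 (SE 0.70, adjusted p = 0.43). The mean of the 7 enzymes deviated from the OPC lesion mean by 1.79 in P3 low-DOX replicate 1, by 0.33 and -0.42 in P3 low-DOX replicates 2 and 3, and by -0.70 to 0.10 in P3 high-DOX tumors. The array with the highest myelin lipid enzymes was the low-DOX array with the highest sterol enzymes, whose mean there was raised by Hsd17b7 and Ebp. Other arrays did not share this match. P3 low-DOX replicate 2, at 0.33 for the myelin lipid enzymes, had sterol enzymes at -1.07. P3 high-DOX replicate 2, at -0.70, had them at -0.30. A link between the 2 sets was not tested.

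Idi1, the isomerase that precedes Fdps, and Scd2, a brain desaturase, were read only from probe sets that name a second gene (Gm13502 and Mir5114), so their values carry no test and cover both genes of each probe set. The Idi1 probe set was 7.62, 7.66 and 7.57 in P3 high-DOX tumors, 7.82, 6.70 and 6.51 in P3 low-DOX tumors, and 8.17, 7.78 and 8.08 in OPC lesions. Low-DOX replicates 2 and 3 were again the 2 lowest arrays. The Scd2 probe set lay between 12.03 and 12.80 on all arrays.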
